A study of Mus musculus with 2 samples.

Results

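Immediate early genes are switched on within minutes of a stimulus without new protein synthesis, and this account follows 10 of them across the cell classes of the mouse lung. The members are Fos, Fosb, Jun, Junb, Egr1, Atf3, Ier2, Zfp36, Nr4a1 and Socs3, chosen by symbol from the 28692 genes of 2 droplet single-cell RNA sequencing libraries. The tumor-bearing library came from lungs of wild-type C57BL/6 mice taken 14 days after 1000000 luciferase-labelled LLC cells (Lewis lung carcinoma, a transplantable mouse lung cancer line) were placed under the skin of the back. The control library came from lungs of untreated wild-type C57BL/6 mice. The number of mice behind each library is not given in the sources used here. From both, CD45-negative, SftpC-positive cells, the surfactant-making alveolar type 2 (AT2) cells, were sorted after enzymatic digestion. Each group was 1 library from 1 condition, so no test across mice was possible, a difference between the mice and one between the libraries cannot be told apart, and every interval below is a 95% interval of counting error only.

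The members have linked roles. Fos, FosB, Jun and JunB form the AP-1 transcription factors as pairs of one Fos and one Jun protein or of Jun proteins alone, and Atf3 is a stress-induced factor of the same bZIP family. Egr1 is a zinc finger factor, Nr4a1 an orphan nuclear receptor and Ier2 a short-lived nuclear protein. Zfp36 binds AU-rich elements and speeds the decay of short-lived mRNAs, and Socs3 damps signalling from gp130 receptors through JAK and STAT3. These genes are also known to respond to enzymatic dissociation of tissue, which all these lungs underwent, and its part in the levels was not tested.

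Of the barcodes with at least 2000 UMIs (unique molecular identifiers, by which each captured RNA is counted once), 8193 were tumor-bearing and 11007 control, and 128 barcodes were in both. Barcodes with at least 15% of their UMIs from Sftpc, the surfactant protein gene of AT2 cells, were taken as AT2 cells, 6729 tumor-bearing and 10008 control cells. Just inside that limit, at 15% to 18%, lay 198 tumor-bearing and 288 control cells, and just outside it, at 12% to 15%, lay 88 tumor-bearing and 120 control barcodes. The other classes were clusters named from marker genes: 158 tumor-bearing and 297 control AT1-like cells (flat cells of gas exchange), 215 tumor-bearing and 283 control ciliated-like cells, 249 tumor-bearing and 67 control club-like cells (airway secretory cells), and 482 tumor-bearing and 54 control endothelial-like cells. Median UMIs per cell ran from 3046 in endothelial-like to 23072 in club-like cells of the tumor-bearing library and from 2628.5 to 12261 in the same classes of the control library, and were higher in the tumor-bearing library in all 5 classes. A further cluster led by the AT1 genes Igfbp2 and Spock2, with 111 tumor-bearing and 217 control cells, was left unnamed because AT2 markers were raised in it. Every one of the markers of each class was above 0 in that class in both libraries. That is no check of the labels, since the classes were taken by these same markers. All 14 AT2 markers were also above 0 in AT1-like, ciliated-like and club-like cells of both libraries. The stated sort aims at AT2 cells, so ciliated-like, club-like and endothelial-like cells were not its target.

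All 10 members were measured above 20 CPM (UMIs scaled to a total of 1000000 in the class) in at least 1 library in every class. On the mm10 build, with GENCODE vM21 annotation, Fos (ENSMUSG00000021250) lies on chromosome 12 at 85473890 to 85477273 and Jun (ENSMUSG00000052684) on chromosome 4 at 95049034 to 95052222. Socs3 (ENSMUSG00000053113) lies on chromosome 11 at 117966079 to 117970047 and Atf3 (ENSMUSG00000026628) on chromosome 1 at 191170296 to 191218039. Fosb (19302696 to 19310051) and Zfp36 (28376784 to 28380253) lie on chromosome 7, Ier2 (84661331 to 84662852) and Junb (84974484 to 84978718) on chromosome 8, and Nr4a1 on chromosome 15 at 101254269 to 101274795. Jun overlaps the antisense gene Junos, Zfp36 the antisense gene Gm44710, Junb the protein-coding gene Prdx2 and Atf3 the non-coding RNA gene Gm24748, each on the opposite strand. How strand was used in the counting is not given in the sources used here.

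Since the members moved together in single cells, the sequence before the transcription start is shown for 4 of them that hold motifs of factors known to drive immediate early genes. The sequences are RefSeq promoters on GRCm38.p6, each the 150 bases before the start, 5′ to 3′ on the gene's strand, and 8 of the 10 members were in that table. Capitals mark every match on either strand to the core of the cyclic AMP response element (TGACG), the Egr site (GCGNGGGCG), the TATA box (TATAAA) and the CArG box, the site of serum response factor. The regions are chr12:85473740-85473889 (plus strand) for Fos, chr7:19310046-19310195 (minus strand) for Fosb, chr7:28379229-28379378 (minus strand) for Zfp36 and chr15:101266696-101266845 (plus strand) for Nr4a1. Those of Zfp36 and Nr4a1 lie inside the gene spans given above, as do those of Atf3 and Socs3. For these genes the start used is thus not the outer end of the span.
Fos: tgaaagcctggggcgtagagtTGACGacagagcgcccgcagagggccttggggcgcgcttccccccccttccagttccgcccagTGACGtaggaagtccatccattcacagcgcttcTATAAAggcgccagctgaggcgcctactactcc
Fosb: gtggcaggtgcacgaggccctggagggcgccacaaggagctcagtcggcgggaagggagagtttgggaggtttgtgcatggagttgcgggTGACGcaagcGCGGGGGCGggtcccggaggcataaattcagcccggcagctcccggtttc
Zfp36: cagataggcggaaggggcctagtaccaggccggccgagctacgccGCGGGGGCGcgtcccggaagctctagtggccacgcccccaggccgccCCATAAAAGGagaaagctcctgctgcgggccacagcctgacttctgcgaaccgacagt
Nr4a1: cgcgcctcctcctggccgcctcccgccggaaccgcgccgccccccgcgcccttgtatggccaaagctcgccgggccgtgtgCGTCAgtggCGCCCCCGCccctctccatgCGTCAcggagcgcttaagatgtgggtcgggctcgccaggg
Over the 250 bases before the start, the TGACG core was in 5 of the 8 members (Fos, Fosb, Junb, Atf3 and Nr4a1) and in 17.8% of all 32851 promoters. The Egr site was in 4 of 8 members (Fosb, Zfp36, Nr4a1 and Socs3) and in 4.70% of all promoters, the TATA box in 1 of 8 (Fos) and in 12.4%, and the CArG box in 1 of 8 (Zfp36) and in 1.47%. The full cyclic AMP response element (TGACGTCA, which contains the core) was in 0 of 8 members and in 1.55% of promoters, and the AP-1 site (TGANTCA) in 0 of 8 and in 6.75%. These matches describe letters in a window and not binding.

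Ciliated-like and endothelial-like cells carried the highest levels of nearly every member. In the control library ciliated-like cells ranked first for 8 of the 10 members and endothelial-like cells for Jun and Junb, but the intervals of these classes overlapped for Fosb, Junb and Socs3, while club-like or AT1-like cells ranked last for all 10. Fos stood at 2972 CPM in control ciliated-like cells, 971 in endothelial-like, 761 in AT2, 582 in AT1-like and 537 in club-like cells, and the intervals of AT1-like and club-like cells overlapped. In the tumor-bearing library endothelial-like cells ranked first for 8 members, though for Nr4a1 their interval overlapped that of ciliated-like cells. The exceptions were Fos, where ciliated-like (1480.4 CPM) and endothelial-like (1463 CPM) cells had overlapping intervals, and Egr1, which was highest in AT2 cells at 530.5 CPM, above endothelial-like cells at 483 CPM. The widest span belonged to Socs3 in the tumor-bearing library, where endothelial-like cells held 794 CPM and club-like cells 33.8 CPM, a 23.5-fold span.

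**Figure D1:**
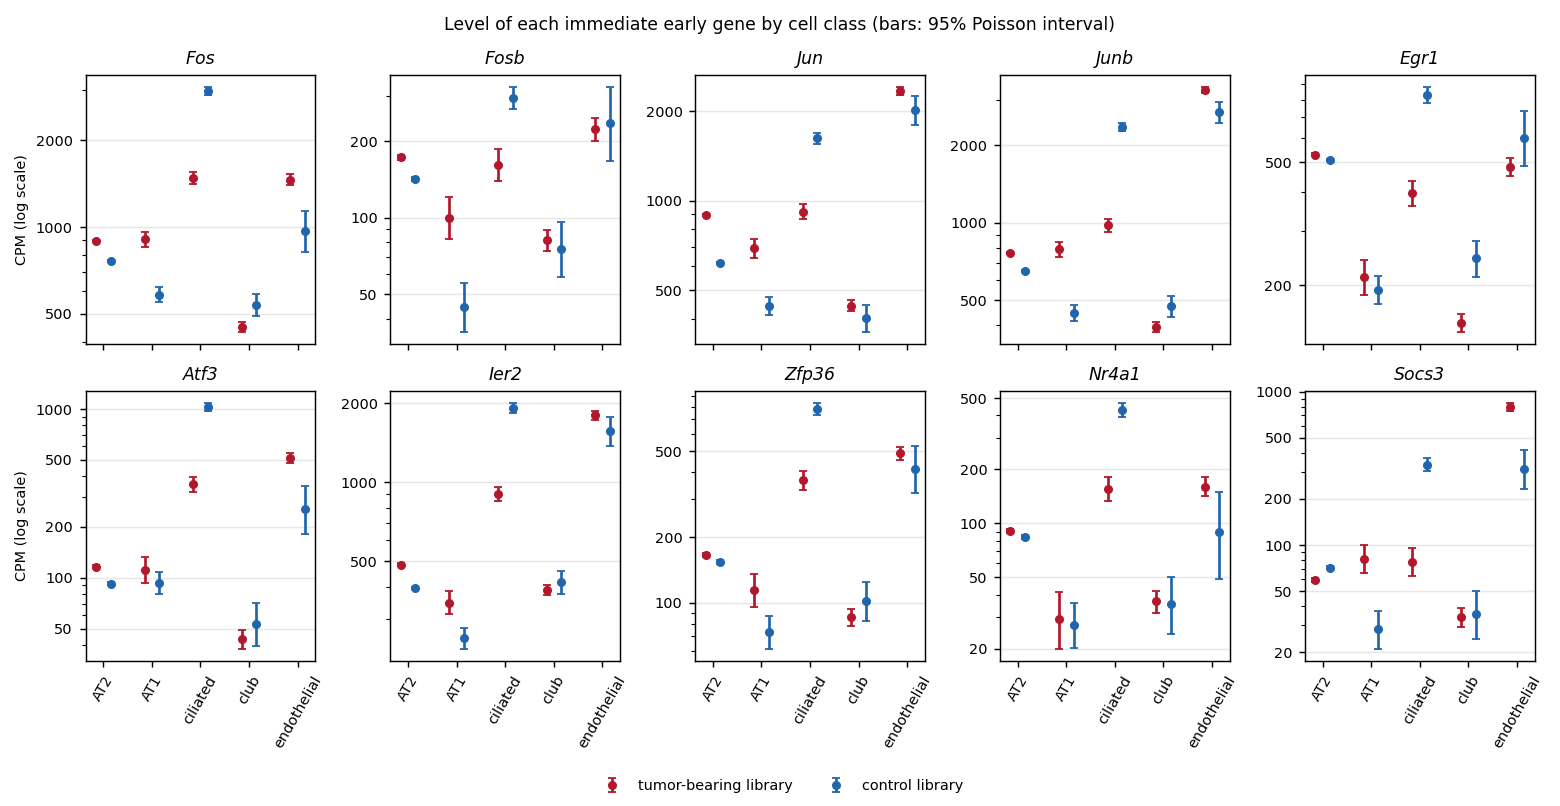
Level of each member in CPM (log axis) in AT2 cells and in AT1-like, ciliated-like, club-like and endothelial-like cells, with the tumor-bearing library in red left of the control library in blue; bars are 95% Poisson intervals. In ciliated-like cells the tumor-bearing point lies below the control point in all 10 panels.

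In ciliated-like cells, which move mucus over the airway surface, all 10 members were lower in the tumor-bearing library. A gene was called where it reached 20 CPM in either library, differed at least 1.5-fold and had separate Poisson intervals. By that rule 10 of 10 members were called lower in ciliated-like cells, against 1.86% of the 6242 genes tested there, and the median log2 ratio of the members was −1.08, against 0.03 over all genes tested. No member was called higher, against 1.76% of genes.

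Among the AP-1 genes, Fos stood at 1480.4 CPM in tumor-bearing and 2972 CPM in control ciliated-like cells, 0.498 times the control level (0.470 to 0.527). Junb stood at 980.3 CPM in tumor-bearing and 2364 CPM in control cells, a ratio of 0.415 (0.387 to 0.444). Jun had 919 CPM against 1620.2 CPM in control cells (0.567 times) and Fosb 161 CPM against 296 CPM (0.545 times). Atf3 lay further below the control level than these 4 genes, at 358 CPM in tumor-bearing and 1022 CPM in control cells, 0.350 times (0.313 to 0.392). Egr1, Ier2 and Nr4a1 were lower too. Egr1 had 397 CPM against 829 CPM in control cells (0.479 times), Ier2 905 CPM against 1918 CPM (0.472 times) and Nr4a1 156 CPM against 429 CPM (0.364 times). Of the feedback genes, Zfp36 stood at 367 CPM in tumor-bearing and 778 CPM in control cells (0.471 times). Socs3 had the lowest ratio of the 10, at 78.0 CPM in tumor-bearing and 335 CPM in control cells, 0.233 times (0.184 to 0.293), on 90 and 432 UMIs. The 5 cells with the most Socs3 held 43.3% of its UMIs in tumor-bearing and 16.7% in control cells. With cells thinned to 2000 UMIs, the top 10% of cells held 55.8% of all member UMIs in tumor-bearing and 35.6% in control cells. The counting intervals do not hold this spread between cells. Under all 17 alternatives run for this class each of the 10 remained below the control level, with medians from −1.38 to −0.95, and 8 to 10 were called lower. Among these alternatives, the 2-fold limit and the setting without a CPM minimum change only the call, so they could not change a direction.

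The lower levels came with a smaller share of cells carrying many members. When each cell was thinned to 2000 UMIs, the control ciliated-like cells gathered at both ends of the count of members with a UMI. Of the ciliated-like cells, 53 tumor-bearing and 53 control cells had 0 members, and 4 tumor-bearing and 33 control cells had all 10. Cells with 5 or more members were 25.6% (19.9 to 32.0) of the tumor-bearing and 44.2% (38.3 to 50.2) of the control ciliated-like cells, and cells with 8 or more were 28 tumor-bearing and 94 control cells. Among cells with 5 or more members, the mean was 33.7 member UMIs in tumor-bearing and 48.6 in control cells. Among cells with 0 to 4 members it was 1.81 in tumor-bearing and 1.83 in control cells. Near the limit between these ranges, 10 tumor-bearing and 12 control cells had 4 members and 12 tumor-bearing and 4 control cells had 5. AT2 cells did not gather at both ends, with 37.7% (36.6 to 38.9) of tumor-bearing and 33.3% (32.4 to 34.3) of control cells at 5 or more members. All classes had these genes, so no class lacking them was at hand as a background.

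**Figure D2:**
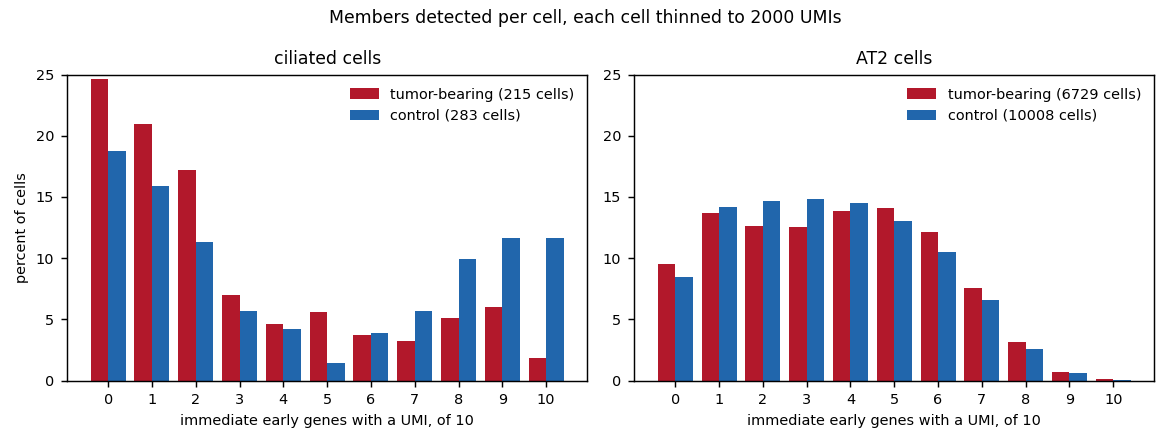
Percent of ciliated-like cells (left) and AT2 cells (right) by the number of the 10 members with at least 1 UMI, after thinning each cell to 2000 UMIs, for the tumor-bearing library in red and the control library in blue. Control ciliated-like cells are spread to both ends, with 44.2% at 5 or more members against 25.6% of tumor-bearing ciliated-like cells.

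Several measures moved with the ciliated-like result. The summed level of the members was higher in deeper cells of each library, and in each of 3 depth ranges it was lower in tumor-bearing than in control cells. It was 1607 CPM in tumor-bearing and 6140.0 CPM in control cells at 2000 to 3875 UMIs. At 3875 to 5413 UMIs it was 3453 CPM in tumor-bearing and 14256 CPM in control cells, and above that 8065 CPM in tumor-bearing and 15433 CPM in control cells. In rising order of depth the ranges held 52, 73 and 90 tumor-bearing and 114, 93 and 76 control cells. Depth was not matched within a range. The summed member UMIs ran against the mitochondrial share across cells, with Spearman's rho of −0.38 in 215 tumor-bearing and −0.51 in 283 control cells, while the median mitochondrial share was 4.02% in tumor-bearing and 4.11% in control cells. Summed AT2 markers, all 14 above 0, stood at 20458 CPM in tumor-bearing and 32733 CPM in control ciliated-like cells, and the 9 red cell markers at 77.1 CPM in tumor-bearing and 448 CPM in control cells with 3 of them at 0 in each library. The 14 endothelial markers were low in both, at 139 CPM in tumor-bearing and 129 CPM in control cells. The level of Scgb1a1, the club cell secretory gene, was 11.2% of that in empty droplets in tumor-bearing and 36.3% in control ciliated-like cells, and with free RNA subtracted on that scale the median log2 ratio of the members was −1.33. Member levels were 0.683 to 2.24 times those of empty droplets in tumor-bearing and 1.39 to 7.67 times in control ciliated-like cells. The part of these measures in the result was not tested beyond those values.

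**Figure D3:**
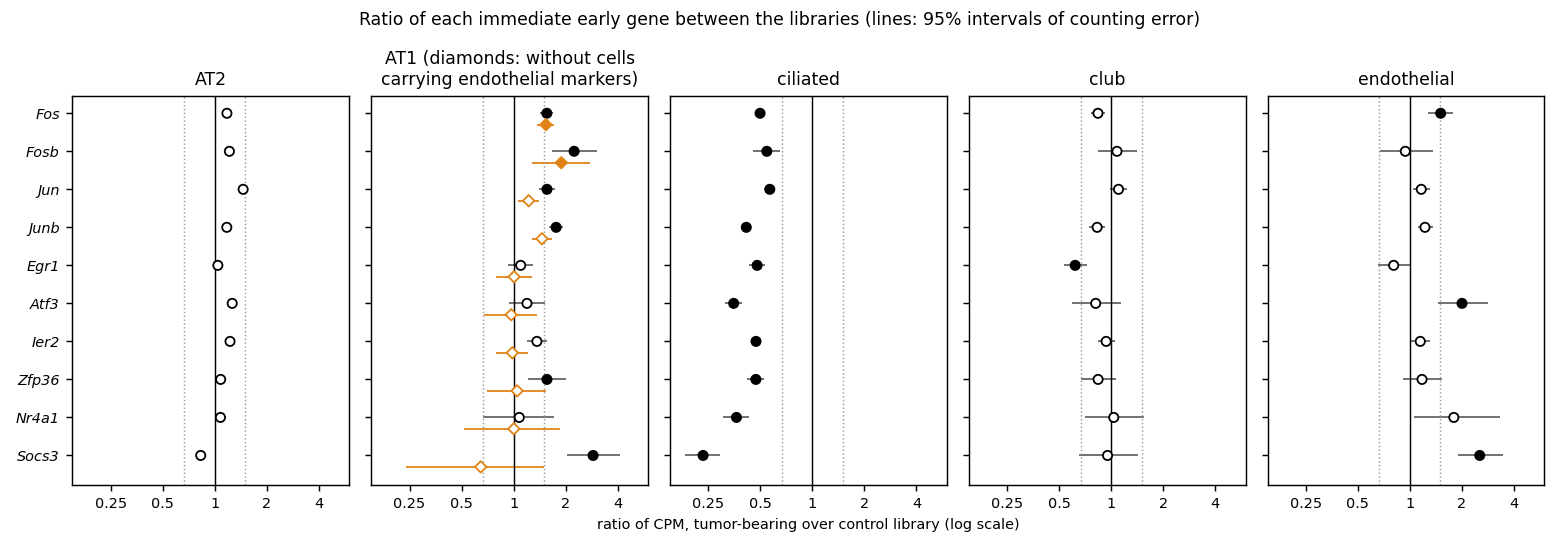
Ratio of CPM, tumor-bearing over control library (log axis), for each member in 5 classes, with lines for 95% intervals of counting error; filled symbols passed the 1.5-fold rule (dotted lines) and open ones did not. All 10 ciliated-like points lie left of 1, and in AT1-like cells all 10 orange diamonds, which leave out cells with 5 or more UMIs of 13 endothelial markers, lie left of their circles.

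In AT1-like cells 6 of 10 members were called higher in the tumor-bearing library, against 5.95% of the 5988 genes tested, but that count depended on cells that also carried endothelial markers. None was called lower, against 2.39% of genes, and the median log2 ratio of the members was 0.64. Fos stood at 907 CPM in tumor-bearing and 582 CPM in control cells (1.56-fold, 1.43 to 1.70), Jun at 691 CPM against 443 CPM in control cells (1.56-fold), and Junb at 788 CPM against 447 CPM in control cells (1.76-fold). Fosb stood at 99.9 CPM in tumor-bearing and 44.6 CPM in control cells (2.24-fold, 1.67 to 3.02). Zfp36 had 115 CPM in tumor-bearing and 73.4 CPM in control cells (1.56-fold), and Socs3 81.5 CPM in tumor-bearing and 28.3 CPM in control cells (2.88-fold, 2.03 to 4.14), on 89 and 52 UMIs. The 5 cells with the most Socs3 held 39.3% of its UMIs in tumor-bearing and 32.7% in control cells. The 4 members not called were Egr1, Atf3, Ier2 and Nr4a1, with ratios of 1.10, 1.19, 1.36 and 1.08. Member levels were 0.241 to 1.19 times those of empty droplets in tumor-bearing and 0.226 to 0.703 times in control AT1-like cells, with Socs3 in tumor-bearing cells the 1 value above 1.

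The 14 endothelial markers summed to 2389 CPM in tumor-bearing and 897 CPM in control AT1-like cells, with none at 0 in either. At least 5 UMIs of the 13 endothelial markers other than Esam, which was seen in AT1-like cells of both libraries, were carried by 58 tumor-bearing cells (36.7%) and 31 control cells (10.4%). Without those cells, 100 tumor-bearing and 266 control cells were left, and 2 members were called higher, against 2.86% of genes. These were Fos, at 826 CPM in tumor-bearing and 537 CPM in control cells (1.54-fold, 1.37 to 1.72), and Fosb, at 82.3 CPM in tumor-bearing and 43.6 CPM in control cells (1.89-fold, 1.28 to 2.77). Junb stood at 1.46-fold, Jun at 1.22-fold, Zfp36 at 1.05-fold and Socs3 at 0.646 times the control level (0.239 to 1.51, on 7 and 29 UMIs), and the median log2 ratio of the members was 0.04. Before this limit, 3 others had been tried with Esam among the markers, all chosen after the data were seen. Leaving out cells with 2, 3 or 5 or more such UMIs left 17, 34 and 64 tumor-bearing and 70, 122 and 198 control cells. Of the members 1, 1 and 0 were then called higher, against 0.936%, 1.75% and 2.45% of genes, and the called one was Fos each time (2.18-fold and 1.67-fold). The differences of Socs3 and Zfp36 in AT1-like cells were thus called with these cells and under none of the 4 limits without them. With the members included in the clustering, which changes which cells are AT1-like, Fosb was the 1 member called higher, and without the 5 cells of each library with the most member UMIs Fos and Jun were not called.

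In endothelial-like cells 3 of 10 members were called higher in the tumor-bearing library, against 1.59% of the 6432 genes tested, and none lower, against 1.60%. Socs3 stood at 794 CPM in tumor-bearing and 313 CPM in control cells (2.54-fold, 1.91 to 3.45). Atf3 stood at 512 CPM in tumor-bearing and 256 CPM in control cells (2.00-fold, 1.46 to 2.82), and Fos at 1463 CPM in tumor-bearing and 971 CPM in control cells (1.51-fold, 1.28 to 1.79). The other 7 had ratios from 0.805 for Egr1 to 1.80 for Nr4a1, and the median log2 ratio of the 10 was 0.26. The interval for Nr4a1 (1.05 to 3.33) rests on 14 control UMIs, and its CPM intervals overlapped. Of the called members, Socs3 rests on 49, Atf3 on 40 and Fos on 152 control UMIs. The 5 control cells with the most of each held 34.7%, 55% and 34.9% of these UMIs in that order. Atf3 and Socs3 were called under every alternative run for this class, while Fos, just past the 1.5-fold limit, was not called at 2-fold, with at most 5% mitochondrial UMIs, with each library clustered on its own, with the members in the clustering, with doublet calls kept or with cells weighted equally. The control value rests on 54 cells, of which 40 were in a cluster led by Cxcl12 and Gpihbp1, 13 in one led by Car4 and Ednrb, and 2 in one led by Slc6a2 and Prss23 before cells meeting the AT2 rule were left out. The same clusters held 368, 75 and 42 tumor-bearing cells. Endothelial-like cells were 5.88% of tumor-bearing and 0.491% of control barcodes.

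In club-like cells Egr1 was the 1 member called, lower at 151 CPM in tumor-bearing and 244 CPM in control cells (0.619 times, 0.533 to 0.721), against 6.96% of the 2486 genes tested, and none was called higher, against 0.764%. Its level was 0.260 times that of empty droplets in tumor-bearing and 0.409 times in control club-like cells. The other 9 members had ratios from 0.814 (Atf3) to 1.10 (Jun). The median log2 ratio of all genes tested in this class was itself −0.20, that of the members −0.17, and with scaling by the median ratio of genes the members' median was −0.01 and no member was called. Egr1 was also not called without the 5 cells of each library with the most member UMIs. The control value rests on 67 cells.

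In AT2 cells, the sorted type, no member was called in either direction, against 1.36% of the 4036 genes tested called higher and 0.892% called lower. Counting error was small here, with 3722 to 56450 UMIs per member in tumor-bearing and 5175 to 55181 in control cells, so the intervals of the ratios were narrow. Of the members, 9 lay above the control level and Socs3 below it, with a median log2 ratio of 0.23 against −0.04 over all genes tested. Jun had the highest ratio, at 897 CPM in tumor-bearing and 615 CPM in control cells (1.46-fold, 1.44 to 1.48), and it passed the 1.5-fold limit with scaling by the median ratio of genes and with free RNA subtracted. Atf3 stood at 116 CPM in tumor-bearing and 92.2 CPM in control cells (1.26-fold), Ier2 at 484 CPM against 395 CPM in control cells (1.22-fold), and Fosb at 172 CPM against 142 CPM (1.21-fold). Fos had 894 CPM in tumor-bearing and 761 CPM in control cells (1.18-fold), and Junb 765 CPM against 652 CPM (1.17-fold). Zfp36 and Nr4a1 both stood at 1.08-fold and Egr1 at 1.04-fold. Socs3 had 59.1 CPM in tumor-bearing and 71.4 CPM in control cells, 0.829 times (0.794 to 0.864). The members' levels in AT2 cells were 0.727 to 1.03 times those of empty droplets in tumor-bearing cells and 0.676 to 0.853 times in control cells.

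The AT2 difference was not of 1 direction within clusters of AT2 cells. A cluster led by Lyz1 and Bex2 held 45.2% of tumor-bearing and 4.37% of control AT2 cells, while clusters led by Mhrt and Cd74 and by Nrn1 and Scd1 held 6.05% and 2.62% of tumor-bearing against 33.6% and 29.7% of control AT2 cells, so each may stand for a library as much as for a cell state. A cluster led by Areg and Cxcl1, which held 22.9% of tumor-bearing and 8.82% of control AT2 cells, had a summed member level of 6538 CPM in tumor-bearing and 5429.5 CPM in control cells. That in the Lyz1 and Bex2 cluster was 2799.8 CPM in tumor-bearing and 2939 CPM in control cells. In a cluster led by Acta2 and Tagln it was 6020 CPM in tumor-bearing and 5340 CPM in control cells. That cluster was left unnamed because its leading genes were of another class, though the cells counted met the Sftpc rule. Another, led by Mhrt, Lars2 and mitochondrial genes, had a median of 3468 UMIs per cell. These clusters are among the 6 that follow. Within the 6 clusters with at least 100 AT2 cells in each library, the median log2 ratio of the members ran from −0.30 in the Mhrt and Cd74 cluster to 0.24 in the Areg and Cxcl1 cluster and was below 0 in 3 of the 6, and with the clusters weighted equally it was 0.04, with 6 of 10 members above 0. Depth ranges weighted equally gave 0.11, with 6 above 0, and the direction turned with depth. At 2000 to 6689 UMIs, which held 1118 tumor-bearing and 4460 control cells, the summed member level was 2983 CPM in tumor-bearing and 3408 CPM in control cells. At 6689 to 8824 UMIs it was 4064 CPM in tumor-bearing and 3515 CPM in control cells, and above that 4384 CPM in tumor-bearing and 3499.6 CPM in control cells. Jun was above the control level and Socs3 below it in all 6 clusters, but not always beyond counting error. The interval held a ratio of 1 for Jun in the Mhrt and Lars2 cluster (1.06-fold, 0.947 to 1.19). It did so too for Socs3 in the Acta2 and Tagln cluster (0.861 times, 0.722 to 1.03). Socs3 had 35.6 CPM in tumor-bearing and 66.5 CPM in control cells of the Lyz1 and Bex2 cluster (0.536 times, 0.460 to 0.627) and 86.8 CPM in tumor-bearing and 116 CPM in control cells of the Areg and Cxcl1 cluster (0.746 times, 0.682 to 0.815). The ratio of Socs3 passed the 1.5-fold rule in 3 of the 6.

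**Figure D4:**
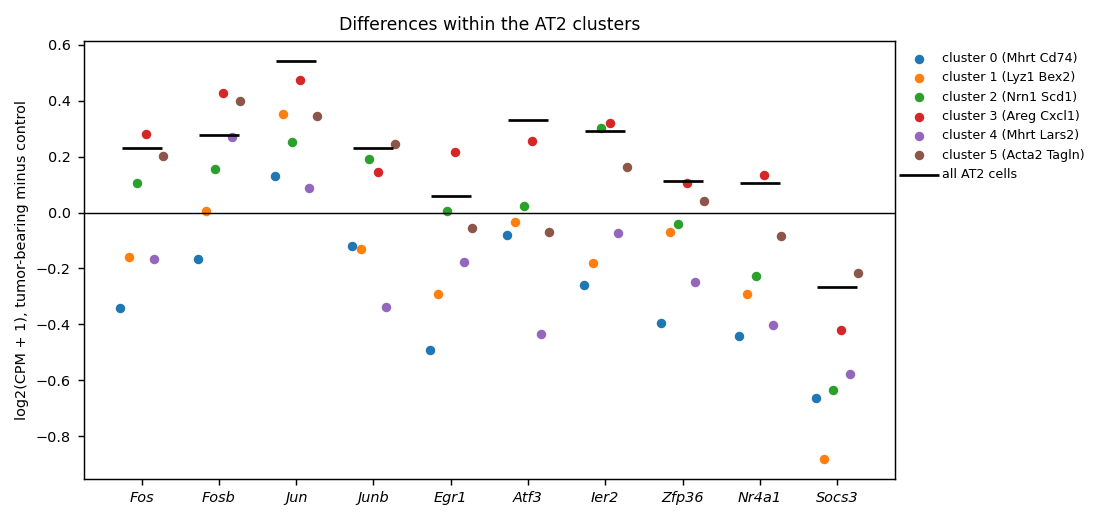
Difference of log2(CPM + 1), tumor-bearing minus control, for each member within the 6 AT2 clusters (dots, named by their 2 leading genes) and over all AT2 cells (black bars). Jun lies above 0 and Socs3 below 0 in every cluster, and the other members fall on both sides of 0. Counting intervals, not drawn, held no difference for Jun in the Mhrt and Lars2 cluster and for Socs3 in the Acta2 and Tagln cluster.

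Within each library the members varied together from cell to cell. Over cells thinned to 2000 UMIs, all 45 pairs of members had a Spearman correlation above 0 in AT2 cells of both libraries, with a median of 0.186 over 6729 tumor-bearing cells and 0.176 over 10008 control cells, while the median over all 6861660 pairs of 3705 genes was 0.000921 in tumor-bearing and 0.000755 in control cells. These are descriptions, since cells of 1 library share depth and preparation. The pairs of all genes were not matched to the members for level, and sparse counts alone can hold a correlation near 0. Whether the members' medians exceed those of genes at like levels was thus not tested. AT2 cells were taken by their Sftpc share, and summed member UMIs ran against that share. Spearman's rho was −0.301 in tumor-bearing and −0.266 in control AT2 cells. The part of that share in the pair correlations was not tested. The highest pair was Fos with Jun, at 0.509 in tumor-bearing and 0.436 in control AT2 cells, and the lowest Fosb with Socs3, at 0.040 in tumor-bearing and 0.050 in control AT2 cells. In ciliated-like cells the median over pairs was 0.545 in 215 tumor-bearing and 0.708 in 283 control cells. Fos with Jun was highest in tumor-bearing ciliated-like cells (0.737) and Fos with Junb in control ones (0.841). Socs3 was the member least tied to the other 9 in these classes, at 0.198 in tumor-bearing and 0.217 in control AT2 cells and at 0.251 in tumor-bearing and 0.613 in control ciliated-like cells, except that Fosb was lower in control ciliated-like cells (0.591). The median over pairs was 0.172 in tumor-bearing and 0.082 in control AT1-like cells, 0.235 in tumor-bearing club-like and 0.307 in tumor-bearing endothelial-like cells, and the control library had under 100 cells in each of the last classes, the minimum used.

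**Figure D5:**
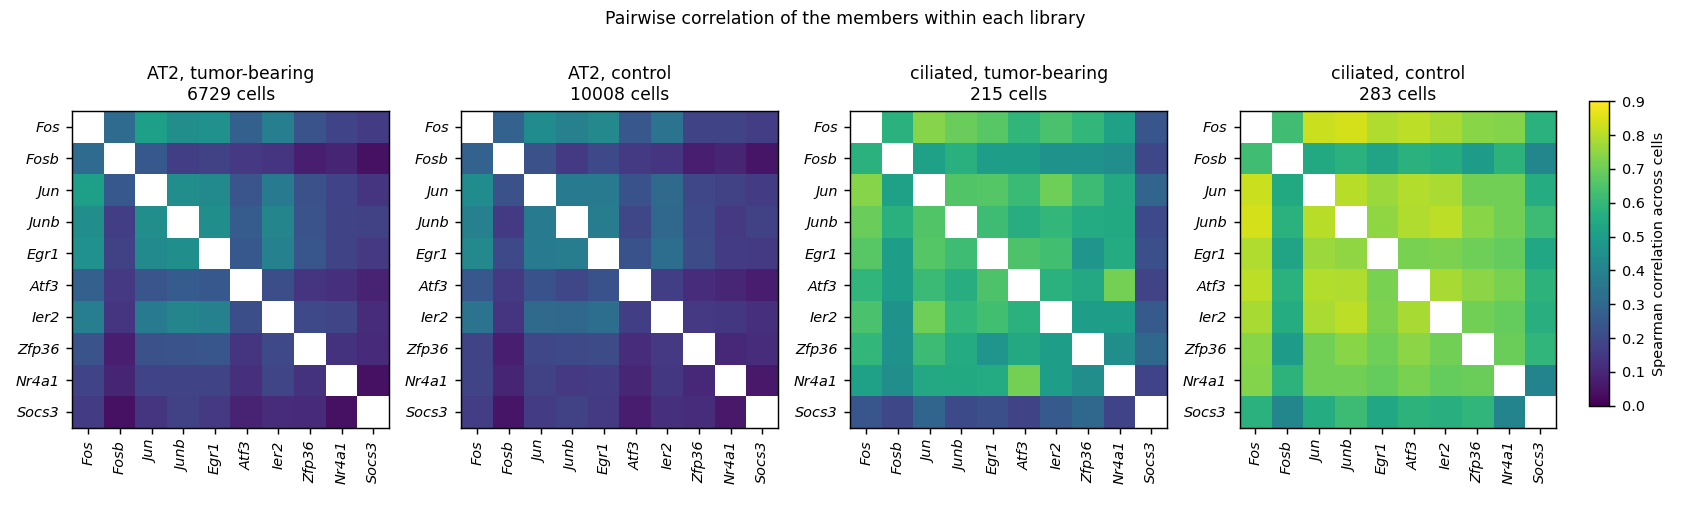
Spearman correlation across cells for each pair of members in AT2 cells (left pair of panels) and ciliated-like cells (right pair), tumor-bearing before control; colour runs from 0 to 0.9. The ciliated-like panels are brighter, with medians of 0.545 (tumor-bearing) and 0.708 (control) against 0.186 (tumor-bearing) and 0.176 (control) in AT2 cells, and the Socs3 row is the dimmest in the tumor-bearing ciliated-like panel.

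The 10 other genes whose level followed the summed members most closely in AT2 cells, by the smaller of the correlations of the 2 libraries, were Btg2, Jund, Dusp1, Nfkbia, Gem, Klf6, Gm12216, Cxcl1, Phlda1 and H3f3b. Btg2, an antiproliferative gene, had rho of 0.437 in tumor-bearing and 0.383 in control cells, and Dusp1, a phosphatase that turns off MAP kinases, 0.401 in tumor-bearing and 0.369 in control cells. In ciliated-like cells, in a list drawn up after the values were seen, Btg2 led again with 0.639 in tumor-bearing and 0.799 in control cells, before Klf6, Klf2 and Dusp1.

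Other immediate early genes were called lower in ciliated-like cells, as the members were. In ciliated-like cells 20 of 35 measured genes of this list were called lower, against 1.86% of all genes tested in the class, and 0 higher, against 1.76%, with a median log2 ratio of −0.74. Examples, chosen after their values were seen, were Btg2, at 566 CPM in tumor-bearing and 1485 CPM in control cells (0.381 times), Egr2, a relative of Egr1, at 48.5 CPM against 175 CPM in control cells (0.277 times), and Nfkbia, the inhibitor of NF-kB, at 499 CPM against 1035 CPM in control cells (0.482 times). In AT2 cells 1 of 30 was called higher, against 1.36% of all genes tested, and 0 lower, against 0.892%, and 24 lay above 0. That gene was Klf2, a zinc finger factor, at 48.4 CPM in tumor-bearing and 24.2 CPM in control cells (2.00-fold, 1.89 to 2.12). The 14 endothelial markers summed to 323 CPM in tumor-bearing and 139 CPM in control AT2 cells. At least 5 UMIs of the 13 other than Esam were carried by 5.86% of tumor-bearing and 0.739% of control AT2 cells. The part of these cells in the Klf2 ratio was not tested. In AT1-like cells, with the endothelial-marker cells included, 13 of 35 were called higher, against 5.95% of all genes tested, and 1 lower, against 2.39%. In endothelial-like cells 5 of 37 were called higher, against 1.59%, and 0 lower, against 1.60%, and in club-like cells 1 of 24 higher, against 0.764%, and 7 lower, against 6.96%.

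Lists of genes upstream of the members or acting beside them held 5 to 16 measured genes each in AT2 and ciliated-like cells. They share genes with the other immediate early list, such as Jund, Maff and Cebpb among bZIP factors and Zfp36l1 and Zfp36l2 among AU-rich element binders. Such genes are counted in each list that holds them. With 1.36% of all genes called higher and 0.892% lower in AT2 cells, and 1.76% higher and 1.86% lower in ciliated-like cells, counts of 0 or 1 in lists of this size are near the share over all genes. Of the inputs through SRF, ETS, CREB and MAP kinases, 0 of 13 measured genes were called in AT2 cells and 0 of 15 in ciliated-like cells. Of the AP-1 partners and other bZIP factors, 0 of 9 were called in AT2 cells, and in ciliated-like cells 1 of 12 was called higher (Cebpg, 1.66-fold) and 1 lower (Maff, 0.332 times). Of the gp130, STAT3 and SOCS list, 0 of 5 were called in AT2 and 0 of 7 in ciliated-like cells, and of the AU-rich element binding list 0 of 8 in AT2 and 0 of 13 in ciliated-like cells. Of the heat shock genes, 1 of 12 was called higher in AT2 cells (Hspa1a, a stress-induced chaperone, 3.16-fold), and in ciliated-like cells 2 of 16 were called higher (Hspa1a 1.82-fold and Hspa1b 1.80-fold) and 1 lower (Hspa8, 0.609 times). In AT1-like, club-like and endothelial-like cells each of these 5 lists held 2 to 24 measured genes, with 0 to 3 called higher and 0 to 3 called lower. The highest counts were above the share over all genes. In club-like cells 3 of 13 heat shock genes were called higher, against 0.764%, and 3 of 8 SRF, ETS, CREB and MAP kinase inputs lower, against 6.96%. In AT1-like cells, with the endothelial-marker cells included, 3 of 16 bZIP factors were called higher, against 5.95%, and 2 lower, against 2.39%.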

How the data were processed

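Each library was deposited as 1 matrix of raw UMI counts for 28692 genes and 737280 barcodes, per the file headers, which is before any call of cells. Per the series design, reads were processed with Cell Ranger 2.1.0, and per the submitters' processing notes the build was mm10, with R 3.5.3 and Seurat named without a role. The tumor-bearing library totalled 84448360 UMIs, the control library 91498124. Cell classes were rebuilt here and can differ from the classes the submitters used. Barcodes had at least 2000 UMIs. AT2 cells were taken by the Sftpc share alone. For the other classes, barcodes with fewer than 500 genes or over 20% mitochondrial UMIs were left out (28 tumor-bearing and 20 control). Scrublet's threshold marked 0 tumor-bearing and 1 control doublets, so the highest-scoring cells, 0.8% per 1000 cells, were removed (533 tumor-bearing and 966 control). Mixed droplets can remain.

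Both libraries were clustered together without the members and the other immediate early genes (scanpy 1.11.5, leidenalg 0.10.2, 2000 variable genes, 30 components, 15 neighbours, resolution 0.5). A cluster was named for the class whose markers, at least 3 detected, were raised most on average, and left unnamed where another class led the leading genes, the mean log2 fold was under 0.5, UMIs were low, or AT2 markers were raised by over 0.3 (log2). These naming limits were set, and altered once, after the clusters were seen. Counts were summed by class to CPM. Intervals are exact: Poisson for CPM, conditional binomial for ratios, Clopper-Pearson for shares. Log2 ratios have a pseudocount of 1 CPM. The calculation was run on simulated Poisson counts with known folds. These hold no spread between cells, mice or libraries, so the run checks the arithmetic and not the calls.

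The members and gene lists were chosen with earlier results of these data known. Named were all members, up to 6 called genes per direction of the other immediate early list in AT2 cells, up to 2 of each further list, and the 10 genes most like the members. Other named genes were chosen after their values were seen. The alternatives were 2 other UMI minimums, 2 other Sftpc shares, clusters in place of the Sftpc share, doublet, mitochondrial, scaling, weighting, free RNA, clustering, fold and CPM settings. Added after seeing the data were equal weights for AT2 clusters or depth ranges, and leaving out shared barcodes, the 5 cells with the most member UMIs, or cells with endothelial markers, the last with 4 limits.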

Additional observations from a re-analysis of the deposited data

Results flagged for a closer look

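Fos, Fosb, Jun, Junb, Atf3, Zfp36 and Socs3 were called higher in one class and lower in another under the same comparison, tumor-bearing against control. Each class gave 1 value per library, so the difference between classes was not tested. In AT1-like cells Fos (1.56-fold), Fosb (2.24-fold), Jun (1.56-fold), Junb (1.76-fold), Zfp36 (1.56-fold) and Socs3 (2.88-fold) were higher, and in ciliated-like cells the same 6 were lower, at 0.498, 0.545, 0.567, 0.415, 0.471 and 0.233 times the control level in that order. Without AT1-like cells carrying 5 or more UMIs of endothelial markers other than Esam, Fos and Fosb remained called higher in AT1-like cells and the other 4 did not. With Esam counted among the markers, Fos alone was called at limits of 2 and 3 UMIs, and no member at 5, where Fos stood at 1.38-fold. In endothelial-like cells Fos (1.51-fold), Atf3 (2.0-fold) and Socs3 (2.54-fold) were higher, against 0.498, 0.350 and 0.233 times in ciliated-like cells.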

How the results depend on the processing

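The 10 lower members of ciliated-like cells kept their direction under all 17 alternatives of that class. The 2-fold limit and the setting without a CPM minimum are among these and could not change a direction. Of the recomputed counts of called members and correlation medians, 165 kept within 1.5 times and 13 moved. Of the recomputed ratios of single members, 699 stayed within the counting interval, 135 moved beyond it and 6 reversed. The 699 include ratios at the 2-fold limit and without a CPM minimum, which could not move because those settings change only the call. Jun was called in AT2 cells, giving 1 higher member there, with scaling by the median ratio of genes and with free RNA subtracted. Of the 6 members called higher in AT1-like cells, 1 (Fosb) was left when clustering included the members and 2 (Fosb and Socs3) at a 2-fold limit. Of those 6, 2 (Fos and Fosb) were left without cells with 5 or more UMIs of endothelial markers other than Esam, and with Esam counted, 1 (Fos) at 3 or more and 0 at 5 or more. Keeping doublet calls gave 9, but a cluster of 63 tumor-bearing and 8 control cells led by Slc6a2 and Prss23 was then named AT1. In the main clustering the cluster led by these genes was named endothelial. Zfp36 in AT1-like cells reversed to a log2 ratio of −0.0090 with the members in the clustering and −0.50 at the 3-UMI limit. Socs3 there reversed to −0.046 with the members in the clustering, −0.59 without the endothelial-marker cells, and −0.99 and −1.12 at the limits of 3 and 5 UMIs with Esam. The 1 lower member in club-like cells was 0 with CPM without surfactant protein genes, Lyz2 and Scgb1a1, with median scaling, at 2-fold, and without the 5 cells with the most member UMIs. Pearson correlation on log2 CPM gave medians of 0.365 in tumor-bearing and 0.269 in control AT2 cells. The cause was not tested beyond these settings. Endothelial-like cells were not run at 3000 or 4000 UMIs, because too few control cells were left, and AT2 cells, chosen by Sftpc, not under other clusterings. The 2-UMI limit, which left 17 tumor-bearing AT1-like cells, was given by its values only. No paired analysis was possible because each group had 1 library. The control club-like and endothelial-like values are limited by their 67 and 54 cells.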

Other observations

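Hspa1a, which encodes an inducible Hsp70 chaperone, was called higher in the tumor-bearing library in all 5 classes, a pattern noticed after the values were seen. It stood at 47.7 CPM in tumor-bearing and 15.1 CPM in control AT2 cells (3.16-fold), 38.5 CPM in tumor-bearing and 15.8 CPM in control AT1-like cells (2.44-fold), and 178 CPM in tumor-bearing and 97.6 CPM in control ciliated-like cells (1.82-fold). In club-like cells it stood at 155 CPM in tumor-bearing and 15.5 CPM in control cells (9.98-fold, 5.92 to 18.3, on 14 control UMIs), and in endothelial-like cells at 274 CPM in tumor-bearing and 31.9 CPM in control cells (8.58-fold, 3.65 to 26.6, on 5 control UMIs). In ciliated-like cells Hspa1a thus lay on the other side of the control level from the 10 members. It does not stand for the heat shock list there, of which 11 of 16 genes lay below 0 and 5 above, with a median log2 ratio of −0.34. The share of all genes called higher in all 5 classes is not given here.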
